A study of Mus musculus with 12 samples.

Results

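Libraries labelled as TCF-1 cKO donor T cells were compared between day 7 after allotransplantation and the time before it. Of the 12 RNA libraries of the series, the 6 labelled TCF-7 cKO were taken by their labels, 3 as Pre transplanted (Pre-Tx) and 3 as Post transplanted Day 7 (Post-Tx), and all 21434 genes that passed a filter on low counts, of 35907 annotated genes, were compared between them. TCF-1, the product of Tcf7, was deleted by floxed Tcf7 alleles and a Cre recombinase driven by the Cd4 promoter. That promoter is active from the double-positive stage in the thymus, so the cKO donor T cells of both groups matured with the same deletion. Donors were C57BL/6 mice, marked by H2Kb, and recipients were lethally irradiated BALB/c mice. These also received T cell-depleted bone marrow of wild-type (WT) C57BL/6 mice, whose cells carry H2Kb and an intact Tcf7. The part of marrow-derived cells in the Post-Tx libraries was not tested. Pre-Tx libraries were made from T cells sorted from donor spleens. Post-Tx libraries were made from donor cells sorted back from recipient spleens by H2Kb and T cell markers. All 6 libraries are labelled CD4 T cell, and a figure legend of the study also names CD4 T cells for the Post-Tx sort. Its results list both CD4 and CD8 among the sort markers, and its methods name CD8 T cells. For the sequencing, the results and methods name CD3 T cells as the transplanted cells, and the legend names CD4 T cells. The labels number the biological replicates without saying which mice each library holds, so p-values measure the spread between these samples. Days in the recipient, irradiation of the host and the contact with alloantigen differ between the groups at once and cannot be told apart. The other 6 libraries, from WT T cells at the same stages, served to show where the TCF-1 cKO change differed. They also entered the filter on low counts, the scaling and the model behind the TCF-1 cKO values.

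TCF-1 and its relative LEF-1 are HMG-box transcription factors that keep mature T cells in a naive or self-renewing state, with high CCR7 and IL-7 receptor. A naive T cell that meets its antigen, here foreign MHC, signals through the T cell receptor (TCR) and CD28, divides, and turns on cytokines, chemokines, granzymes, and costimulatory and inhibitory receptors. In graft-versus-host disease, donor T cells of this kind home to the spleen and then to the skin, liver and gut, where their interferon-gamma, TNF and cytotoxic granules damage host tissue.

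Values are given as normalized CPM, the counts of each library put on a common total (CPM) with TMM scaling factors, in the order of replicates 1, 2 and 3. A gene is said to have risen or fallen where edgeR's quasi-likelihood test gave an adjusted p under 0.05 over all genes tested with a fold change whose log2 was 1 or more in either direction. Log2 fold changes are given for day 7 against Pre-Tx with their standard error (SE, n = 3 and 3 libraries). The 6 libraries held 18022093 to 25756488 counts each.

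The targeted gene does not check the deletion here. Tcf7, on chromosome 11 at 52252371 to 52283014 of GRCm38, was at 188, 148 and 192 normalized CPM in the Pre-Tx libraries and at 91.5, 107 and 113 at day 7. The groups did not overlap, as in 50.2% of all genes tested. The log2 fold change of -0.77 ± 0.23 is smaller than 1 in size and Tcf7 was not called (edgeR adjusted p = 0.024). The Pre-Tx mean was 176 ± 24.4 (SD) in TCF-1 cKO and 177 ± 46.2 (SD) in WT, and a count over whole transcripts would not show the loss of the floxed part alone. Of 10 genes of the TCF/LEF and beta-catenin group, 3 rose and 1 fell, with a median log2 fold change of -0.51 against 0.36 over all genes tested. Lef1 was not called (log2 fold change -0.63 ± 0.22, edgeR adjusted p = 0.0445). Tle4, which encodes a corepressor that binds TCF factors, was at 20.2, 49.6 and 28.1 before and 7.7, 6.53 and 6.69 after transplantation and fell by 2.23 on the log2 scale (SE 0.41, edgeR adjusted p = 0.00102). Ctnnb1, the gene of beta-catenin, was at 212, 199.7 and 182 before and 130.4, 106 and 113 after, below the limit for a call (log2 fold change -0.76 ± 0.24). The 3 that rose were Wnt4, a Wnt ligand, Tcf7l1, a further TCF factor, and Axin2, a target and inhibitor of Wnt signalling, with log2 fold changes of 2.88, 2.59 and 2.71. All of them were highest in Post-Tx replicate 2, a library that stands apart as given below, and without it 1 of the 10 was called higher.

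Before the results, the content of the libraries has to be given, because it differed between the groups. The Pre-Tx libraries went against their label as sorted CD4 T cells. Per TPM of the CD3 gene Cd3e, the B cell receptor gene Cd79a stood at 14.8 to 20.4 TPM in the Pre-Tx libraries and at 0.00662 to 0.00759 TPM in the Post-Tx libraries (7.65 to 9.95 TPM in the WT Pre-Tx libraries). Cd4 was at 0.791 to 1.19 TPM per TPM of Cd8a before transplantation and at 43.0 to 85.8 after it, so that the Post-Tx libraries held far more Cd4 than Cd8a transcript. All 19 B cell markers fell, with a median log2 fold change of -6.65, and their summed level went from 13405 to 14469 normalized CPM down to 105 to 178. The 10 MHC class II genes all fell (median -5.15), as did 9 of 11 immunoglobulin constant genes tested (-5.12), 4 of 5 plasma cell markers (-3.73), 7 of 8 NK cell markers (-4.02), both CD8 genes and 6 of 10 erythroid markers (-1.94, 4 of 10 without Post-Tx replicate 2). Of 8 dendritic cell markers 4 fell, of 15 macrophage and monocyte markers 3, of 11 neutrophil markers 1 and of 4 platelet markers 1, and none rose. Leaving out 1 library moved these last counts to 2 (neutrophil markers without Pre-Tx replicate 2 or Post-Tx replicate 1, platelet markers without Pre-Tx replicate 1) and gave 1 dendritic cell marker called higher without Pre-Tx replicate 3. Of 5 stromal and endothelial markers 1 rose and 1 fell, and the rise was lost without Pre-Tx replicate 1 or 3 or Post-Tx replicate 1 or 3. No marker of these lists was without counts in all Post-Tx libraries. At day 7 macrophage and monocyte markers summed to 2718 to 3125 normalized CPM (4069 to 6111 before) and neutrophil markers to 696 to 1866 (1000 to 2090 before). Erythroid markers summed to 1292 to 4849 and MHC class II genes to 1464 to 1889. The CD3 and TCR constant genes summed to 3086 to 3567. The part of RNA from other cells in the day 7 levels of genes such as Ccl3, Ccl4, Ccl24 and Il6 was not tested. The largest falls by the rule for named genes, which takes protein-coding genes only, included those of Fcmr, Ly6d, Cd79a, Fcrla, Blk, Srpk3, Mzb1, Cd79b and Vpreb3, most of them B cell genes, between -10.64 and -7.904 on the log2 scale.

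**Figure D1:**
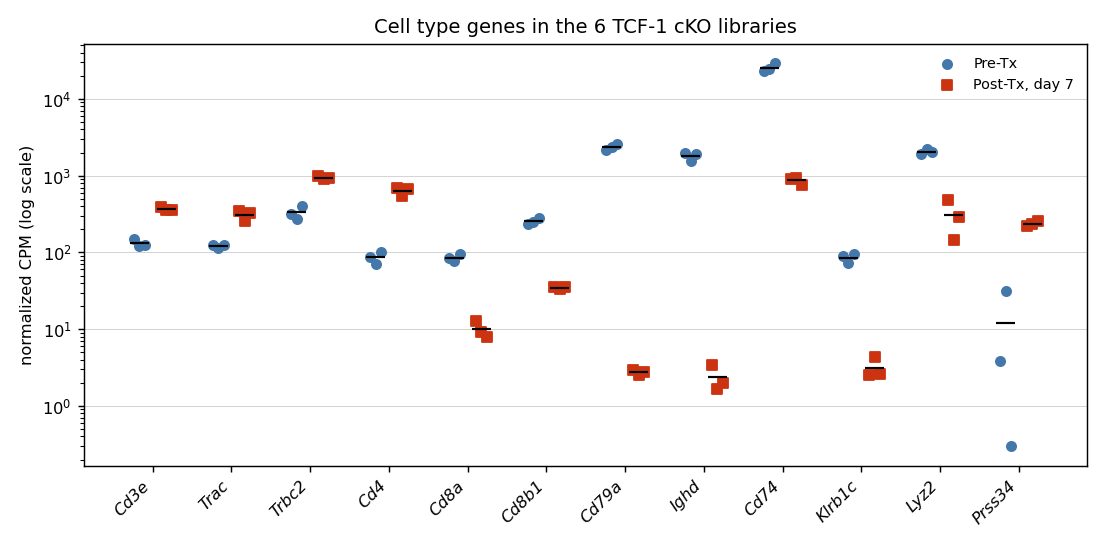
Levels of T cell genes (Cd3e, Trac, Trbc2, Cd4, Cd8a, Cd8b1), B cell genes (Cd79a, Ighd), the MHC class II invariant chain gene Cd74, the NK gene Klrb1c, the macrophage gene Lyz2 and the basophil gene Prss34 (normalized CPM, log scale) in the 6 TCF-1 cKO libraries, with Pre-Tx libraries as circles, Post-Tx libraries as squares and a line at each mean. Cd79a stood at 2162, 2364 and 2561 before transplantation and at 2.94, 2.55 and 2.78 at day 7, while Cd3e and Cd4 rose.

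The genes of the T cell receptor itself rose together. Cd3e was at 149, 119.9 and 125 normalized CPM in the Pre-Tx libraries and at 386, 358 and 362 at day 7, a log2 fold change of 1.49 ± 0.21 (edgeR adjusted p = 7.98e-05). Cd3d rose by 1.66, Trac, the alpha chain constant gene, by 1.35 and Trbc2, a beta chain constant gene, by 1.497 on the log2 scale. All 7 genes of this list rose, between 1.23 and 1.66, and in each the groups did not overlap, which was also so for 50.2% of all genes tested. Of the 2 CD4 T cell markers 1 rose: Cd4, the coreceptor for MHC class II, rose by 2.86 (SE 0.29), from 86.8, 71.2 and 102 to 685, 541 and 664. Cd8a fell by 3.097 and Cd8b1 by 2.88. In bulk RNA, fewer cells of a type and less RNA of that type per cell cannot be told apart, and a Pre-Tx library in which other cells gave much of the RNA shows any T cell gene at a lower share. For this reason a second scale was used beside the main one, in which library sizes are replaced by the summed counts of Cd3d, Cd3e and Cd3g. It lowers every log2 fold change by about the rise of the CD3 genes and moved the median over all genes from 0.36 to -1.21, a shift of -1.57. On it Cd3e, Trac and Trbc2 stand at -0.102, -0.24 and -0.07, with the sign turned.

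Post-Tx replicate 2 stood apart from the other day 7 libraries. The 640 olfactory receptor genes tested, which T cells are not known to use, summed to 1367, 1553 and 951 normalized CPM in the Pre-Tx libraries and to 3488, 8463 and 4338 at day 7. Of these, 248 were called higher and 1 lower, against 13.8% and 9.99% of all genes tested, and 236 of the 248 were highest in Post-Tx replicate 2. Without Post-Tx replicate 2 the test called 58 of them higher, and without Pre-Tx replicate 1, 2 or 3 it called 127, 142 and 105. The same sum was 2672 to 6768 in the WT Pre-Tx libraries and 1159 to 2639 in the WT Post-Tx libraries, the opposite order. Of processed pseudogenes, 434 were called higher, 13 lower and 1889 were not called, against 13.8% higher and 9.99% lower of all genes tested. Of 4 sex-linked genes 2 were called higher, 1 without Post-Tx replicate 2. The part that this background takes in the rise of any gene was not tested.

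Across all genes, 2950 (13.8% of 21434) rose and 2142 (9.99%) fell by day 7. The numbers depend on the level of the gene. Among the 3771 genes under 1 normalized CPM in the higher group, 316 were called higher and 2 lower, and among the 7269 genes from 1 to 10 normalized CPM 1419 were higher and 186 lower. From 10 to 100 normalized CPM the order turned, with 1003 of 7893 genes higher and 1262 lower, and of the 2501 genes at 100 or more 212 were higher and 692 lower. Among the 10394 genes with a mean of at least 10 normalized CPM in the higher TCF-1 cKO group, 11.7% (1215) rose and 18.8% (1954) fell, with a median log2 fold change of -0.38. Of the 2950 genes called higher, 2009 (68.1%) were highest in Post-Tx replicate 2. Without that library 1052 genes were called higher and 1555 lower. Leaving out Pre-Tx replicate 1, 2 or 3 or Post-Tx replicate 3 gave 1659, 1815, 1647 and 1933 called higher, and without Pre-Tx replicate 3 the count called lower was 1344. With upper-quartile scaling 4177 genes were called higher and 1248 lower, so that 77.0% of the calls were rises against 57.9% under TMM, and the median moved to 0.73. Scaled to the CD3 genes, 369 (1.72%) were called higher and 9217 (43.0%) lower, so that 3.85% of the calls were rises.

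**Figure D2:**
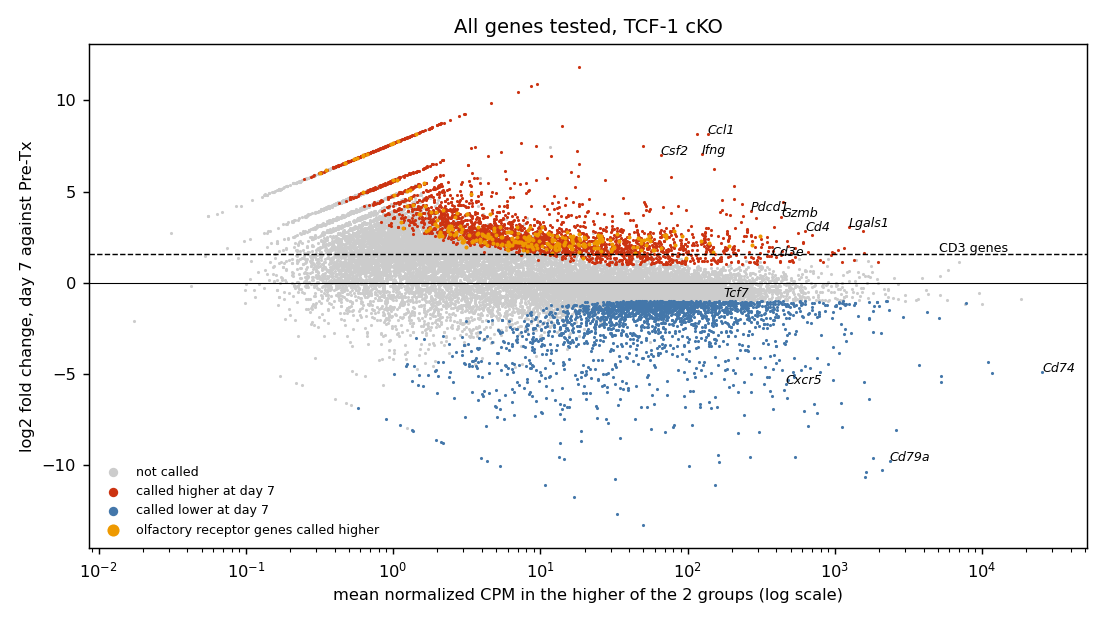
Log2 fold change at day 7 of each of the 21434 genes tested (vertical axis) against its mean normalized CPM in the higher group (horizontal axis, log scale). Genes called higher are red, genes called lower blue and olfactory receptor genes called higher orange. The dashed line, labelled CD3 genes, is at 1.57, the size of the shift of the median over all genes on the CD3 scale. Calls of rises crowd at low levels, where 1419 genes between 1 and 10 normalized CPM were called higher and 186 lower.

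Gene groups differed widely in how many members moved. Chemokine ligand, cytokine, costimulatory, inhibitory, cytotoxic and cell cycle groups had medians of 1.61 to 3.36, above the 0.36 of all genes, and B cell, MHC class II and NK groups had medians of -4.02 to -6.65. Proteasome, MHC class I and respiratory chain groups had medians between -0.11 and 0.19, and on the scale of the CD3 genes 19 of 20, 12 of 12 and 44 of 46 of their genes were called lower. The counts and medians of these groups come from lists chosen with earlier results of these data known. Of genes at 10 normalized CPM or more 11.7% rose and 18.8% fell, and a group near these shares is not set apart by its counts. Where leaving out a single library moved the number of calls in a group by over 1.5 times, the library and the number are given with the group. Genes outside the rule for named genes were chosen after their values were seen, namely Axin2, Tcf7l1, Il3, Il4, Il21, Lta, Gzma, Prf1, Irf4, Myc, Btla, Crtam, Bcl6, Malt1, Bcl10 and the members listed by name only.

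**Figure D3:**
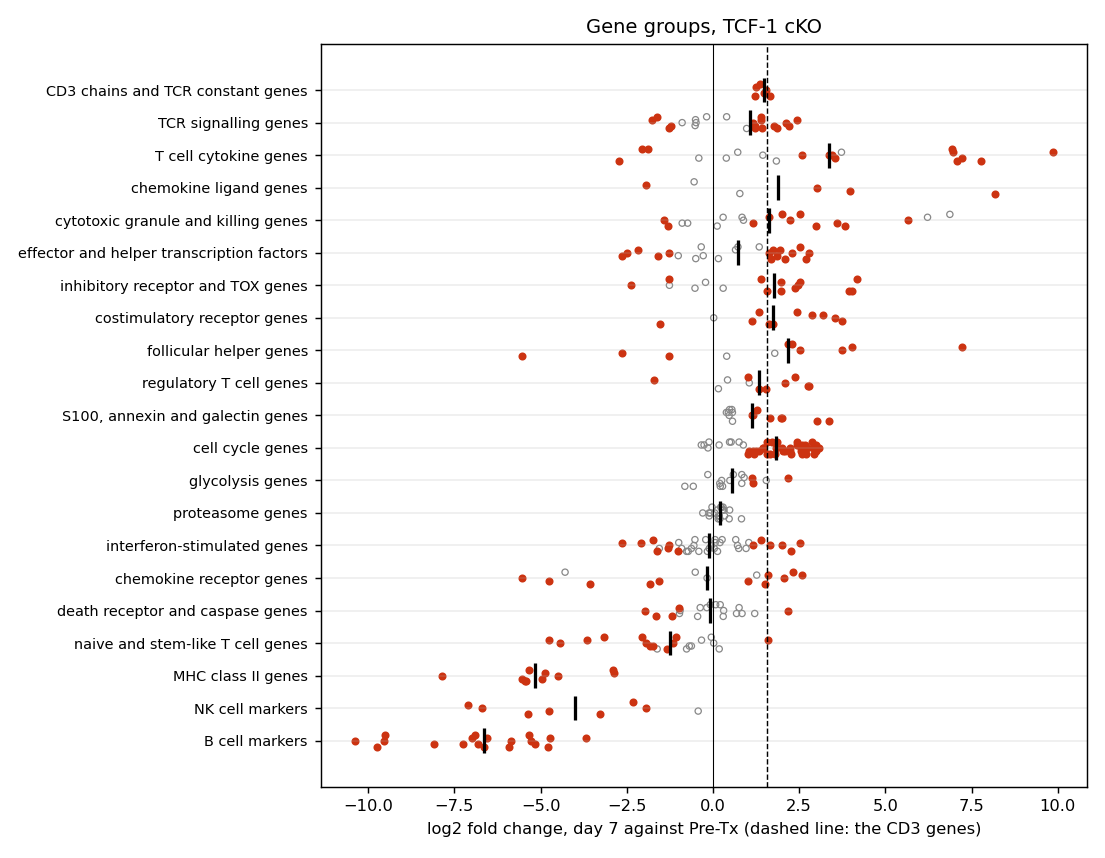
Log2 fold change at day 7 of the members of 21 gene groups in TCF-1 cKO cells, with filled points for called genes and open points for genes not called. A bar marks each group's median and a solid line marks 0. The dashed line is at 1.57, the size of the shift of the median over all genes on the CD3 scale. Cytokine, inhibitory, costimulatory and cell cycle genes lie mostly to the right of the dashed line, and the proteasome genes, with a median of 0.19, lie to its left.

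Secreted signals were 4 of the 10 largest rises. By the rule for named genes these were Ccl1, Susd2, Ifng, Csf2, Ccl24, Mcpt8, Gzmc, H2-Q2, Eno1b and Furin, with log2 fold changes from 4.44 to 8.17. The scale of the CD3 genes lowers all log2 fold changes by about the same amount, so it keeps most of the ranking by construction. On it 9 of these were among the 10 largest, with Ptpn13, a tyrosine phosphatase gene, in place of Furin. Ccl1, the ligand of the chemokine receptor CCR8, on chromosome 11 at 82176657 to 82305690, was at 0.732, 0.127 and 0.593 normalized CPM before and at 159, 129 and 124 after transplantation. Its log2 fold change was 8.17 ± 0.54 (edgeR adjusted p = 1.61e-08) and 6.598 on the CD3 scale. Susd2, a membrane protein gene, went from 0.471, 0.127 and 0.247 to 40.5, 65.1 and 42.8 normalized CPM (log2 fold change 7.47 ± 0.56), highest in the library with the most olfactory receptor counts. Furin, the protease that cleaves many precursor proteins, was at 24.8, 14.3 and 22.2 before and 608, 474 and 247 after (log2 fold change 4.44 ± 0.37). Ccl24, a chemokine that draws eosinophils, rose by 6.21 on the log2 scale. H2-Q2, a nonclassical MHC class I gene, and Eno1b, a copy of the enolase gene Eno1, rose by 4.65 and 4.59, and both have close copies between which reads can be split, so their levels are uncertain.

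Among 6 chemokine ligand genes 3 rose and 1 fell. Ccl3, an inflammatory chemokine that binds CCR1, was at 5.8, 0.381 and 3.9 before and 60.9, 55.5 and 40.8 at day 7 (log2 fold change 3.97 ± 0.61). Ccl4, its close relative, was at 22.2, 18.3 and 11 before and 175, 149 and 89.8 after (log2 fold change 3.01 ± 0.41). In neither gene did the groups overlap, as in 50.2% of all genes tested. Ccl5, a further inflammatory chemokine, went the other way, from 358, 460.2 and 574 to 143, 104 and 118 normalized CPM (log2 fold change -1.93 ± 0.27, edgeR adjusted p = 6.74e-05). NK cells and CD8 T cells also make Ccl5, their markers fell beside it, and their part in its fall was not tested. Xcl1 was at 9.41, 7.71 and 7.51 before and 4.85, 6.63 and 5.36 after and was not called.

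Of 19 T cell cytokine genes tested, 10 rose and 3 fell, with a median log2 fold change of 3.36 (2.94 where genes absent before transplantation are put at their bound), and 7 were called higher and 4 lower on the CD3 scale. Ifng, the gene of interferon-gamma on chromosome 10 at 118441046 to 118445892, was at 1.2, 0.127 and 1.48 normalized CPM in the Pre-Tx libraries and at 159, 124 and 92.8 at day 7. All 3 day 7 values lie far above all Pre-Tx values, with a log2 fold change of 7.08 ± 0.62 (edgeR adjusted p = 4.07e-07). Csf2, which encodes GM-CSF, a factor that activates myeloid cells, was at 0.0523, 1.14 and 0.296 before and 60.5, 70.7 and 65 after (log2 fold change 6.97 ± 0.84). Il21, a cytokine of follicular helper T cells, went from 0.314, 0.0424 and 0 to 18, 15.5 and 19.4 (log2 fold change 7.21 ± 1.18, edgeR adjusted p = 3.49e-04).

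Il4, Il5 and Il3 were low before transplantation and rose. Il4, which drives antibody class switching and type 2 responses, was at 0.0523, 0.212 and 0 before and 8.03, 11.9 and 15.3 at day 7 (log2 fold change 6.92 ± 0.89, edgeR adjusted p = 3.35e-05). Il5, an eosinophil growth factor, and Il3, a growth factor of basophils and mast cells, had no count in any Pre-Tx library, where 3 counts per library would be 0.144 normalized CPM. At day 7 Il5 was at 0.327, 1.52 and 1.45, and Il3 was at 3.36, 5.83 and 4.69. Against that floor Il5 was at least 7.65-fold and Il3 at least 32.1-fold higher. Il13 was at 0.157, 0 and 0 before and 0.7, 0.696 and 0.789 after and was not called (edgeR adjusted p = 0.131). Il3 and Csf2 lie at 54265303 to 54267277 and 54247271 to 54249667 on chromosome 11, and Il4, Il13 and Il5 lie within 53602982 to 53725106 of the same chromosome. Basophil genes moved with these cytokines. Prss34, a basophil protease gene, was at 3.82, 31.5 and 0.296 before and 221, 231 and 255 after, and Mcpt8, another one, at 0, 1.36 and 2.82 before and 77.1, 73.9 and 78.4 after. Of 9 basophil genes, a list made after these values were seen, 5 rose, and 2 without Post-Tx replicate 2 or without Pre-Tx replicate 3 and 3 without Post-Tx replicate 1 or 3. Their sum was 61.7 to 82.7 normalized CPM before and 445 to 518 after transplantation, with no member at 0 in all libraries. Basophils make Il4, and the part of their RNA in its rise was not tested.

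Other cytokine genes moved less or fell. Il6 was at 0.471, 0.847 and 0.0988 before and 6.86, 3.68 and 6.11 after (log2 fold change 3.53 ± 0.94). Il2, the T cell growth factor, was at 0, 0.593 and 0.296 before and 2.19, 3.45 and 4.4 after (log2 fold change 3.45 ± 1.01, edgeR adjusted p = 0.0208), and this call was lost when Pre-Tx replicate 3, Post-Tx replicate 2 or Post-Tx replicate 3 was left out (smallest log2 fold change 2.88). Tnf was not called, at 17.1, 5.13 and 4.64 before and 11.5, 13 and 10.7 after transplantation, with overlapping groups (log2 fold change 0.39 ± 0.52), and at -1.26 on the CD3 scale. Ltb, the lymphotoxin beta gene, which naive T cells and B cells express, fell from 993, 1236 and 1634 to 224, 190.3 and 168 normalized CPM (log2 fold change -2.73 ± 0.24), beside the fall of the B cell markers, whose part was not tested. Il16 fell by 1.89 on the log2 scale and Lta by 2.05.

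**Figure D4:**
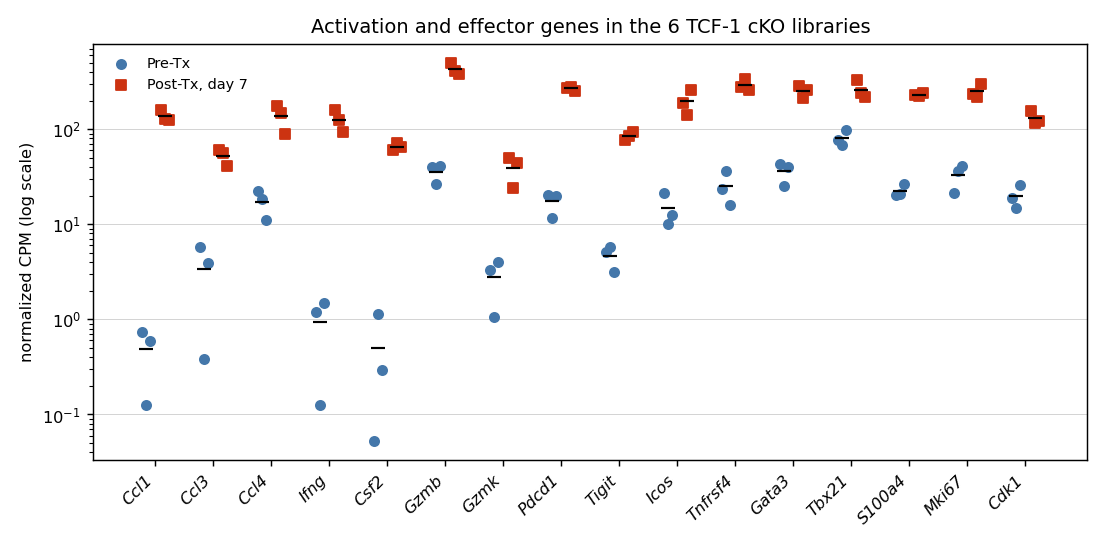
Levels of activation and effector genes (normalized CPM, log scale) in the 6 TCF-1 cKO libraries, with Pre-Tx libraries as circles, Post-Tx libraries as squares and a line at each mean. The genes shown were chosen with their values known, and in each the 3 Post-Tx libraries lie above the 3 Pre-Tx libraries. Gzmb was at 497, 409.9 and 383 against 39.8, 26.5 and 40.8. Groups did not overlap, in either direction, in 50.2% of all genes tested.

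The cytotoxic group split between the granzymes. Of 19 genes tested 9 rose and 2 fell, with a median of 1.61 (1.35 with genes absent before transplantation at their bound), and on the CD3 scale 4 were called higher and 6 lower. Gzmb, which encodes the caspase-cleaving granzyme B, was at 39.8, 26.5 and 40.8 before and at 497, 409.9 and 383 normalized CPM after transplantation (log2 fold change 3.59 ± 0.28, edgeR adjusted p = 1.07e-07). Gzmk was at 3.29, 1.06 and 4 before and 50.1, 24.2 and 44.1 after (log2 fold change 3.83 ± 0.48), and Gzmc, which lies near Gzmb on chromosome 14, at 0, 0 and 1.63 before and 23.1, 38.2 and 20.6 after (log2 fold change 5.65 ± 1.07). In each of these genes the groups did not overlap, which was also so for 50.2% of all genes tested. The rule that names Gzmc among the largest rises requires it. Serpinb6b, a granzyme inhibitor gene, and Rab27a, needed for granule release, rose by 2.98 and 2.23 on the log2 scale. Gzma, in contrast, was at 262, 311 and 334 before and 140.1, 76.5 and 153 after (log2 fold change -1.29 ± 0.32, edgeR adjusted p = 0.00832), a call that was lost without Pre-Tx replicate 3 or Post-Tx replicate 2, where the log2 fold change was between -1.49 and -1.04 over all 6 such fits. Prf1, the gene of the pore-forming perforin, fell from 119, 131 and 184 to 68.2, 58.2 and 36.6 (log2 fold change -1.41 ± 0.26). Without Pre-Tx replicate 3 or Post-Tx replicate 2, 1 of the 2 falls was left. NK and CD8 T cells carry both Gzma and Prf1, NK markers summed to 823 to 1127 normalized CPM before and 288 to 327 after transplantation, and their part in these falls was not tested.

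Helper and effector transcription factor genes moved in both directions, 10 of 23 up and 5 down, with a median of 0.72. On the CD3 scale 2 were called higher and 10 lower, with a median of -0.89. Bhlhe40, a regulator of cytokine production, was at 77.3, 83.2 and 97.3 before and 679.6, 583 and 424 after (log2 fold change 2.71 ± 0.23). Gata3, the master regulator of type 2 helper cells, was at 43.3, 25.2 and 40.0 before and 287, 211 and 256 after (log2 fold change 2.79 ± 0.26, edgeR adjusted p = 8.02e-07). Tbx21, the gene of T-bet that drives type 1 helper cells, was at 76.1, 67.5 and 99.1 before and 326, 237 and 219.7 after (log2 fold change 1.69 ± 0.24, edgeR adjusted p = 9.75e-05). On the CD3 scale Gata3 stood at 1.204 and Tbx21 at 0.12. Batf, an AP-1 factor of activated T cells, rose by 1.87. Eomes was at 13.8, 27.8 and 26.9 before and 11.9, 12.5 and 9.68 after and was not called (log2 fold change -1.01 ± 0.57, edgeR adjusted p = 0.182). Irf8, which B cells express strongly, fell by 2.17 on the log2 scale. Irf4, induced early by TCR signals, went from 97.8, 104 and 87.3 to 22.7, 14.8 and 13.8 and fell by 2.496 on the log2 scale. Myc, a driver of cell growth, went from 86.7, 147 and 144 to 49.8, 63.1 and 44.2 and fell by 1.26. The call of Myc was lost without Pre-Tx replicate 3.

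Of 16 inhibitory receptor and TOX genes 10 rose and 2 fell, with a median of 1.76. On the CD3 scale 3 were called higher and 6 lower, with a median of 0.21. Pdcd1, the gene of PD-1, on chromosome 1 at 94038305 to 94052553, was at 20.4, 11.8 and 20.1 normalized CPM before and at 274, 276 and 255 after transplantation (log2 fold change 3.95 ± 0.26, edgeR adjusted p = 1.60e-08). Tigit, which binds CD155, was at 5.07, 5.8 and 3.16 before and 77.7, 85.4 and 93.9 after (log2 fold change 4.19 ± 0.31). Both stayed above the CD3 genes, at 2.37 and 2.59 on that scale, as did Havcr2, the gene of TIM-3 (2.52, and 0.98 on the CD3 scale), and Lag3 (2.46 and 0.89). Tox, a factor tied to exhaustion of chronically stimulated T cells, was at 12.8, 11.3 and 18.3 before and 34.2, 39.6 and 36.6 after, a rise of 1.38 on the main scale and -0.17, with the sign turned, on the CD3 scale. Btla, an inhibitory receptor that B cells also carry, fell from 251, 197 and 128 to 29, 19.2 and 62.8 (log2 fold change -2.38 ± 0.41, edgeR adjusted p = 5.27e-04).

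Costimulatory receptor genes rose in 9 of 11 cases, with 1 fall and a median of 1.74, and 4 were called higher and 2 lower on the CD3 scale. Icos was at 21.4, 10.1 and 12.6 before and 190.4, 139 and 257 after (log2 fold change 3.73 ± 0.43). Tnfrsf4, the gene of OX40, was at 23.6, 35.9 and 16.1 before and 279, 337 and 255 after (log2 fold change 3.53 ± 0.32). Tnfrsf9, the gene of 4-1BB, rose by 2.87, and Cd40lg, the CD40 ligand that helper T cells show to B cells, by 3.19 on the log2 scale. These receptors appear on T cells after activation, and the groups did not overlap in any of them, as in 50.2% of all genes tested. Cd28, which naive T cells already carry, was at 42.5, 35.9 and 40.2 before and 149, 95.4 and 153 after (log2 fold change 1.74 ± 0.2998), which is 0.14 on the CD3 scale. The 1 fall was Crtam, by 1.53, and this call was lost in 5 of the 6 fits that each leave out a library, all but that without Pre-Tx replicate 1.

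Follicular helper genes split. Of 11, 6 rose and 3 fell, with a median of 2.16, and 3 and 3 were so called on the CD3 scale. Cxcr5, the receptor that leads T cells and B cells into follicles, was at 432, 499 and 464 before and 10.8, 8.39 and 11.1 at day 7 (log2 fold change -5.53 ± 0.27, edgeR adjusted p = 3.93e-10). Bcl6, the lineage factor of follicular helper cells that germinal centre B cells use too, was at 59.9, 54.6 and 57.3 before and 11, 9.91 and 6.77 after (log2 fold change -2.63 ± 0.36). Against these, Il21 and Icos rose as given above, Sh2d1a, the gene of the SLAM adaptor SAP, rose by 2.29 and Maf, an Il21 and Il4 activator, by 2.53 on the log2 scale. B cell markers fell with Cxcr5 and Bcl6, and their part was not tested.

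Regulatory T cell genes rose in 7 of 11 cases and fell in 1, with a median of 1.34 (1 higher and 2 lower on the CD3 scale, median -0.25). The members that rose were Il2ra, Ctla4 and Tnfrsf18, which activated effector cells also carry, and Ikzf2, Gpr83, Nrp1 and Izumo1r. Il2ra, the high-affinity chain of the IL-2 receptor, was at 13.2, 14.3 and 5.39 before and 85.5, 67.3 and 74.3 after (log2 fold change 2.79 ± 0.33), Ctla4 at 4.08, 12.6 and 4.69 before and 29.4, 36.5 and 46.2 after (log2 fold change 2.39 ± 0.44). Tnfrsf18, the gene of GITR, rose by 1.34, which turns to -0.25 on the CD3 scale. Foxp3, the lineage factor of regulatory T cells, was at 12.9, 19.1 and 17.4 before and 27.5, 12.1 and 15.7 after, with overlapping groups and no call (log2 fold change 0.16 ± 0.42, and -1.44 on the CD3 scale). Capg fell by 1.71.

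The naive T cell program was lower at day 7, with 11 of 20 genes down, 1 up and a median of -1.25. Ccr7, which guides naive cells within lymph nodes, was at 537, 559 and 679 before and 13, 23.7 and 28.7 after (log2 fold change -4.76 ± 0.31). The day 7 values lie far below all Pre-Tx values. Foxp1, a quiescence factor, fell by 3.15, Id3, an inhibitor of E proteins, by 3.66 and S1pr1, the receptor for egress from lymphoid organs, by 1.81 on the log2 scale. B cells express these genes as well, and the part of their RNA was not tested. Il7r, the IL-7 receptor, was at 121, 77.2 and 83.5 before and 55.8, 57.4 and 159 after, with overlapping groups and no call (log2 fold change -0.05 ± 0.44), and its sign turned to 0.33 under upper-quartile scaling.

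Chemokine receptor genes moved both ways, with 6 of 15 up, 5 down and a median of -0.17 (none higher and 8 lower on the CD3 scale). Cxcr6, carried by effector and tissue T cells, was at 141, 88.9 and 116 before and 729, 569.6 and 789 after (log2 fold change 2.595 ± 0.301). Cxcr3, the receptor for interferon-induced chemokines, was at 82.8, 75.7 and 64.2 before and 232, 182 and 224 after (log2 fold change 1.52 ± 0.22), which is -0.09 on the CD3 scale. Ccr2, Ccr8 and Ccr9 also rose, and Cxcr5, Ccr7, Ccr6, Ccr1 and Cxcr4 fell. Of 14 homing and adhesion genes, 2 rose and 4 fell (1 rose without Pre-Tx replicate 2, Pre-Tx replicate 3 or Post-Tx replicate 3). Among genes at 10 normalized CPM or more 11.7% rose and 18.8% fell. Cd44, the hyaluronan receptor and memory marker, was at 121, 134 and 127 before and 92.9, 117 and 141 after, with overlapping groups and no call (log2 fold change -0.12 ± 0.22), and its sign turned to 0.25 under upper-quartile scaling.

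Cytokine receptor and JAK genes rose and fell in equal number, 8 and 8 of 22, with a median of 0.17 (3 higher and 14 lower on the CD3 scale, median -1.44). Il2rb, the beta chain shared by the IL-2 and IL-15 receptors, was at 261, 293 and 360.4 before and 1168, 949.5 and 1008 after (log2 fold change 1.77 ± 0.21). Il1rl1, the gene of the IL-33 receptor ST2 of type 2 and regulatory T cells and of basophils, was at 1.41, 3.26 and 2.92 before and 53, 53.7 and 47.5 after (log2 fold change 4.34 ± 0.44). Il4ra, the IL-4 receptor, fell from 391, 307 and 459 to 83.2, 117 and 86.3 (log2 fold change -2.01 ± 0.24). The basophil genes given above moved with Il1rl1, and their part was not tested.

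Genes of TCR signalling rose in 11 of 22 cases and fell in 4, with a median of 1.07. On the CD3 scale none was called higher and 10 lower, with a median of -0.53. Zap70, the kinase bound to the CD3 chains, was at 60.9, 68.7 and 93.1 before and 418, 335 and 279.7 at day 7 (log2 fold change 2.21 ± 0.26). Lat, the adaptor it phosphorylates, was at 61.9, 85.1 and 75.2 before and 342, 341 and 274 after (log2 fold change 2.11 ± 0.24). Both rose by more than the CD3 genes, at 0.65 and 0.53 on that scale, though below the limit for a call. Lck, the first kinase of the cascade, rose by 1.23, which turns to -0.34 on the CD3 scale. Cd6, a T cell adhesion receptor, rose by 1.76. Csk, the kinase that inhibits Lck, fell from 291, 294 and 361 to 95, 85.7 and 95.8 (log2 fold change -1.77 ± 0.23). Malt1 and Bcl10, which carry TCR and B cell receptor signals to NF-kB, fell by 1.27 and 1.23 on the log2 scale. B cells express them too, and their part was not tested.

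S100, annexin and galectin genes, which mark effector and memory T cells, rose in 8 of 15 cases, none fell, and all 15 log2 fold changes were above 0 (median 1.14). S100a4 was at 20.1, 20.9 and 26.3 before and 226, 224 and 239 after (log2 fold change 3.36 ± 0.27, edgeR adjusted p = 1.46e-07). Lgals1, the gene of galectin-1, was at 118, 162 and 175 before and 1365, 1192 and 1157 after (log2 fold change 3.03 ± 0.25). On the CD3 scale 2 of the 15 were called higher and 7 lower.

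Of 45 cell cycle genes 36 rose and none fell, with a median of 1.84 and 9 called higher and 7 lower on the CD3 scale. Mki67, the proliferation marker, was at 21.3, 36 and 40.8 normalized CPM before and at 236, 218 and 300.0 after transplantation (log2 fold change 2.94 ± 0.29, edgeR adjusted p = 1.88e-06). Birc5, the gene of survivin, was at 17.1, 25.2 and 36.4 before and 238, 172 and 217 after (log2 fold change 2.99 ± 0.29). Top2a, the topoisomerase of mitotic chromosomes, was at 43.9, 30.9 and 49.9 before and 222, 201 and 306 after (log2 fold change 2.55 ± 0.26), and Cdk1, the mitotic kinase, at 18.7, 14.7 and 25.9 before and 154, 116 and 122 after (log2 fold change 2.73 ± 0.27). The groups did not overlap in any of these, as in 50.2% of all genes tested. On the CD3 scale these 4 genes stood at 1.39, 1.44, 0.97 and 1.16.

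Because these genes move together, their promoters were read from RefSeq on GRCm38.p6, from 250 bases before to 50 after the start. 28 of the 36 genes that rose matched a promoter by symbol. Genes of late cell cycle are known to carry the element CHR, and genes of S phase E2F sites. The letters TTTGAA (CHR) were found on either strand in 12 of the 28 (42.9%) and in 20.2% of 26994 genes, TTTNNCGC (E2F-like) in 6 (21.4%) and 5.92%, and CCAAT in 21 (75.0%) and 41.0%. Of the 8 other cell cycle genes with a promoter in the table, 3 (37.5%) held TTTGAA, 4 (50.0%) TTTNNCGC and 6 (75.0%) CCAAT. A match is a string of letters and not a shown site. The 3 promoters below are printed because they hold these letters in genes that rose, with TTTGAA and TTTNNCGC on either strand in capitals. That of Mki67 is chr7:135716330-135716629 on the minus strand, with 2 CHR matches. That of Top2a is chr11:99024140-99024439 on the minus strand, with 2 CHR matches. That of Cdk1 is chr10:69352863-69353162 on the minus strand, with 2 CHR and 2 E2F-like matches. The Birc5 promoter held none of these letters.
Mki67: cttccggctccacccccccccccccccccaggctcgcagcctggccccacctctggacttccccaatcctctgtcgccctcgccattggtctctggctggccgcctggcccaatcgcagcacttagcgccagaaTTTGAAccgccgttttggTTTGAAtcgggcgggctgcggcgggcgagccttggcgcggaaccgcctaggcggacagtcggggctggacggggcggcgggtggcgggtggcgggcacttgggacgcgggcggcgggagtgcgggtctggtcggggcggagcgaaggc
Top2a: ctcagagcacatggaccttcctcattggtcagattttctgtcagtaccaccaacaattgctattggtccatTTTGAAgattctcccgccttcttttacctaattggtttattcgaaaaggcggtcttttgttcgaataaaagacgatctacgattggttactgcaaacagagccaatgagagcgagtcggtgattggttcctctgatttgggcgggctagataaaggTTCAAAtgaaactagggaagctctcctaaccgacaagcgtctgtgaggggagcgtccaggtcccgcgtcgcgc
Cdk1: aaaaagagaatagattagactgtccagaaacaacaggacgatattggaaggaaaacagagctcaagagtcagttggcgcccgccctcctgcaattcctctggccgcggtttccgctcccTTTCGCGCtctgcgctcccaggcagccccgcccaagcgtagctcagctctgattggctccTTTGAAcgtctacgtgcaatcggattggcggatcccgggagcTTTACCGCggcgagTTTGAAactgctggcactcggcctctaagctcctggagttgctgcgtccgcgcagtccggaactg

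Of 10 quiescence and cell cycle inhibitor genes 1 rose and 2 fell, with a median of -0.27 (2 rose without Pre-Tx replicate 3). These counts are near the 11.7% higher and 18.8% lower of genes at 10 normalized CPM or more. Cdkn1a, the p21 gene, was at 9.15, 16.4 and 11.6 before and 126, 106 and 84.8 after (log2 fold change 3.09 ± 0.31). Btg1, an antiproliferative gene of naive lymphocytes, went from 654, 561 and 431 to 90.1, 65.7 and 111 and fell by 2.63 on the log2 scale. Its relative Btg2 went from 443, 468 and 453 to 149, 112 and 156 and fell by 1.71.

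Of 16 glycolysis genes 3 rose and none fell (6 rose without Pre-Tx replicate 3, and 1 fell without Post-Tx replicate 1), with a median of 0.54. Ldha, which makes lactate, was at 754, 875 and 1051 before and 2200.3, 1856 and 1808 after (log2 fold change 1.13 ± 0.21), and Pfkp, a phosphofructokinase gene, rose by 1.15, a call lost without Post-Tx replicate 1. Gapdh was not called (log2 fold change 0.903 ± 0.22). On the CD3 scale the signs of Ldha, Pfkp and Gapdh turned, to -0.44, -0.43 and -0.66. Of 46 nuclear respiratory chain genes none rose and 1 fell, Sdha by 1.12 (median 0.10), a call lost without Pre-Tx replicate 3, and 1 was called higher without Pre-Tx replicate 3 or Post-Tx replicate 2. Of 13 mitochondrially encoded genes 2 were called lower (median -0.83), and this changed with each library left out, to 4 without Post-Tx replicate 3 and to none without any other. Their sum was 22791 to 29405 normalized CPM before transplantation, and after it 11030, 8217 and 20320 in replicates 1, 2 and 3. Of 24 cholesterol and fatty acid synthesis genes 4 fell, against 18.8% of genes at 10 normalized CPM or more, with a median of -0.48. The stearoyl desaturase genes Scd1 and Scd2 had log2 fold changes of -4.096 and -2.21. None of 20 proteasome genes, 12 MHC class I and peptide loading genes and 7 amino acid transporter genes was called, with medians of 0.19, -0.11 and -0.26 (1 proteasome gene was called higher without Pre-Tx replicate 1).

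Ribosomal protein genes were lower. Of 79, 38 fell and none rose (1 without Pre-Tx replicate 2), with a median of -0.98 against -0.38 for genes of at least 10 normalized CPM. Rps27 was at 745, 1065 and 1046 before and 254, 227 and 267 after (log2 fold change -1.93 ± 0.27). The count rests on how libraries are scaled and which are used. It was 12 without Pre-Tx replicate 3, 24 without Post-Tx replicate 2 and 5 under upper-quartile scaling, and many ribosomal protein genes have processed copies between which reads can be split.

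Of 37 interferon-stimulated genes 6 rose and 7 fell, against 11.7% and 18.8% of genes at 10 normalized CPM or more, with a median of -0.11 (4 fell without Pre-Tx replicate 3, and 11 rose and 4 fell under upper-quartile scaling). Those that rose were Gbp2, Gbp4, Gbp5, Gbp7 and Iigp1, GTPase genes that interferon-gamma is known to induce strongly, and Ifi44. Those that fell were Ifit1, Ifit3, Irf9, Oasl2, Rsad2, Usp18 and Trim30a. Iigp1 was at 15.4, 13.6 and 10.2 before and 89.7, 61.5 and 72.4 after (log2 fold change 2.51 ± 0.402), and Gbp7 at 71.6, 56.5 and 68.5 before and 247, 188 and 186 after (log2 fold change 1.66 ± 0.24). Ifit3, a type I interferon target that binds viral RNA, went from 123, 73.5 and 178 to 16, 21.5 and 22.8 (log2 fold change -2.63 ± 0.33). Irf9, part of the factor that acts downstream of the type I receptor, fell by 1.29 on the log2 scale. Of 17 immediate early genes, Nr4a2 and Nr4a3, orphan nuclear receptors induced by TCR signals, rose, and 3 fell, among them Jun, by 1.94, and Zfp36, whose product degrades cytokine mRNA, by 2.102. Of 22 chaperone and unfolded protein response genes 3 fell and none rose (median -0.19). For the immediate early and the chaperone genes the shares to compare are again 11.7% higher and 18.8% lower.

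Of 17 BCL2 family genes 1 rose (2 without Pre-Tx replicate 3) and 3 fell (median -0.07), and 3 rose and 3 fell under upper-quartile scaling (median 0.30). Under the main scaling 11.7% of genes at 10 normalized CPM or more rose and 18.8% fell. Mcl1, an antiapoptotic member, was at 99.97, 149.7 and 119.9 before and 35.3, 34.4 and 44.4 after (log2 fold change -1.696 ± 0.27). Bid and Bmf, which promote death, fell by 1.63 and 3.14, and Bcl2a1d, an antiapoptotic gene with near copies, rose by 1.22, which turns to -0.33 on the CD3 scale. Of 19 death receptor and caspase genes 1 rose and 4 fell (median -0.08), which became 5 and 2 under upper-quartile scaling (median 0.30). Birc3, an inhibitor of apoptosis, fell by 1.97, Casp9 by 1.66 and Casp2 by 1.18 on the log2 scale. Tnfrsf10b, the TRAIL receptor, was at 16.7, 16.5 and 6.82 before and 37.8, 101 and 41.8 after (log2 fold change 2.17 ± 0.47), highest in Post-Tx replicate 2, the library with the most olfactory receptor counts. Of 8 GIMAP genes, GTPases of lymphocyte survival, 1 fell, Gimap6, by 1.08, and this call was lost without Pre-Tx replicate 1 or Post-Tx replicate 2, while 2 were called without Post-Tx replicate 1.

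The same comparison was made in WT cells, to find where the change in TCF-1 cKO cells differed. In WT 2107 genes (9.83%) rose and 2061 (9.62%) fell. Of the genes called higher, 507 were called in both genotypes, 17.2% of the TCF-1 cKO and 24.1% of the WT calls, and 491 genes called higher in TCF-1 cKO were called lower in WT. Of the genes called lower, 822 were shared, 38.4% and 39.9% of the calls. Among genes of at least 10 normalized CPM in the higher TCF-1 cKO group the shared rises were 447, 36.8% and 22.8%. The shared falls were 704, 36.0% and 58.1%. A test of the difference itself, the interaction of genotype and stage, called 3665 genes (17.1%) with a change above that of WT and 2469 (11.5%) with a change below it at an adjusted p under 0.05, 6134 in all. Without Post-Tx replicate 2 of TCF-1 cKO the test called 3013. At 10 normalized CPM or more the shares were 7.75% above and 23.4% below, and the median change of these genes was -0.38 in TCF-1 cKO and 0.25 in WT. Of the 640 olfactory receptor genes 335 were called above WT and none below, and the part of that background in the differences between the genotypes was not tested.

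Of the 10 genes with the largest rises, Ifng, Ccl1, Csf2, Gzmc, H2-Q2 and Eno1b were not called different between the genotypes, and Susd2, Ccl24, Mcpt8 and Furin were. Ifng rose by 7.08 in TCF-1 cKO and by 7.07 in WT, Ccl1 by 8.17 and 8.34, and Csf2 by 6.97 and 7.06. The differences were 0.01 (SE 1.56), -0.17 (SE 0.698) and -0.09 (SE 1.04), none of them called. Pdcd1 rose by 3.95 and 4.83, a difference of -0.89 (SE 0.33, edgeR adjusted p = 0.0523).

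Of 19 cytotoxic genes 7 had a change below that of WT, of 11 follicular helper genes 4 and of 20 naive genes 10, against 11.5% of all genes tested and 23.4% of those at 10 normalized CPM or more. Other groups had counts as high, with 19 of 37 interferon-stimulated genes, 12 of 23 effector and helper transcription factors, 12 of 22 chaperone genes and 6 of 8 GIMAP genes below WT. Gzma fell by 1.29 in TCF-1 cKO and rose by 1.28 in WT, where it was at 113, 114 and 67.1 before and 142, 236 and 338 at day 7, and the difference was -2.58 (SE 0.45, edgeR adjusted p = 0.00254). The log2 fold changes were -1.41 in TCF-1 cKO and 0.82 in WT for Prf1, -1.93 and 0.09 for Ccl5, and 0.41, not called and -1.19 on the CD3 scale, and 4.26 for the killer receptor gene Klrc1. Cxcr5 fell in both, with log2 fold changes of -5.53 in TCF-1 cKO and -2.28 in WT (difference -3.25, edgeR adjusted p = 7.08e-05), and it was at 81, 57.3 and 51.3 in the WT day 7 libraries against 10.8, 8.39 and 11.1 in TCF-1 cKO. The log2 fold changes of Btla were -2.38 and 0.75, of Bcl6 -2.63 and -0.44, and of Foxp1 -3.15 and -1.21. For each of these 6 genes the difference had an edgeR adjusted p under 0.05. Before transplantation Bcl6 was at 59.9, 54.6 and 57.3 in TCF-1 cKO and 30.5, 24.1 and 24.9 in WT, and Btla at 251, 197 and 128 and 61.9, 69.1 and 33.3, higher in every TCF-1 cKO library. Ctnnb1 was not called in TCF-1 cKO and rose by 1.27 in WT (difference -2.04, edgeR adjusted p = 0.00234), with Pre-Tx levels of 212, 199.7 and 182 and 75.5, 91 and 46.7. Mki67 rose less than in WT, by 2.94 against 4.399 (edgeR adjusted p = 0.0142 for the difference), with overlapping day 7 levels of 236, 218 and 300.0 and 301, 211 and 253. Besides Klrc1, the 10 changes farthest below WT by the rule for named genes were those of Amd1, Cnbd2, Srp54b, Mettl18, Card6, Wrn, Rsl1, Ggh and Zfp120, with differences between -3.83 and -3.28. Amd1, whose product makes the aminopropyl donor for polyamines, was at 35.9, 45.5 and 24 before and 2.94, 2.85 and 4.65 at day 7 in TCF-1 cKO and at 10.2, 14.4 and 0.739 and 6.11, 12.4 and 17.3 in WT.

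Rises above those of WT were found in Susd2, by 4.56 (SE 0.65, edgeR adjusted p = 0.00128), Il4, by 3.46 (SE 1.05, edgeR adjusted p = 0.0242), and Wnt4, by 3.64 (SE 0.86, edgeR adjusted p = 0.00823). At day 7 Susd2 was at 40.5, 65.1 and 42.8 in TCF-1 cKO and 90.5, 37.7 and 68.1 in WT, and Il4 at 8.03, 11.9 and 15.3 and 9.99, 7.76 and 11.1. The day 7 levels of the genotypes overlap for both, and the Pre-Tx levels do not, where WT had 11.1, 5.38 and 9.66 for Susd2 and 1.41, 0.409 and 0.8 for Il4. Zfp488 rose in TCF-1 cKO and fell in WT (2.61 and -2.28), and in both genotypes it was highest in the library with the most olfactory receptor counts of its higher group, at 79.7, 198 and 106 in TCF-1 cKO cells on day 7 and 221, 64.8 and 139 in WT cells before transplantation. The others of the 10 changes farthest above WT were in Zscan2, Ces2f, Hsd3b2, Fstl1 and 4 olfactory receptor genes, with log2 fold changes above 0 in TCF-1 cKO and below 0 in WT, as for the olfactory receptor sums.

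**Figure D5:**
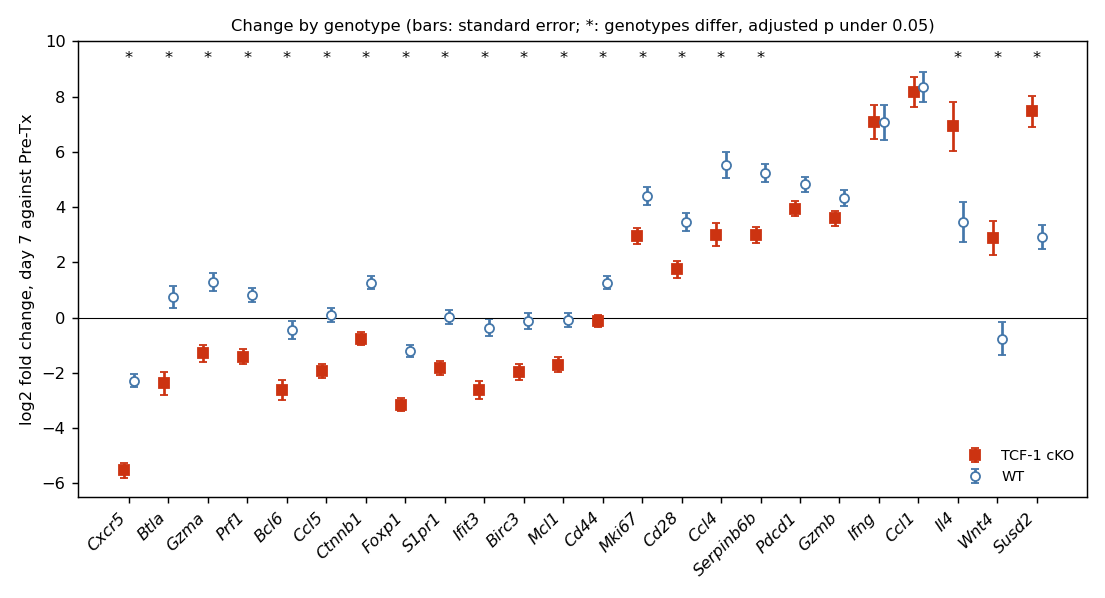
Log2 fold change at day 7 against Pre-Tx of 24 genes in TCF-1 cKO (squares) and WT (circles) cells, with bars for the standard error and an asterisk where the interaction of genotype and stage had an adjusted p under 0.05. Ifng, Ccl1, Gzmb and Pdcd1 have no asterisk, and Cxcr5, Btla and Gzma lie lower in TCF-1 cKO than in WT.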

How the data were processed

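RNA of cells described as sorted donor T cells was extracted with TRizol and amplified with a SMART-seq HT kit. Libraries were made with Nextera XT and sequenced paired-end on a NovaSeq. According to the submitters' processing notes the authors used kallisto 0.46.2, and mm9 is named as build. The deposited files hold, per transcript, estimated counts and TPM made by the authors. The SMART-seq protocol does not mark strand, so reads of a gene and its antisense partner cannot be told apart.

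Estimated counts were summed per gene through transcript identifiers without version, of which 116428 of 117497 (99.1%) were found in GENCODE M21 (GRCm38). The versions of 116415 were higher than in M21. The 1069 unmatched transcripts took, in the TCF-1 cKO libraries, 0.311% to 0.386% of the counts. Sums were rounded, edgeR's filter on low counts kept 21434 of 35907 genes, and TMM factors were applied. The 12 libraries held 17103415 to 49486745 counts. No TCF-1 cKO library was a copy of another of its group, and other pairs were not checked.

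One quasi-likelihood model with 4 groups was fitted to all 12 libraries (edgeR 4.0.16, R 4.3.3), with Benjamini-Hochberg adjustment over all genes. Calls need an adjusted p under 0.05 with a log2 fold change at or beyond 1 in size. A limma voom fit (3.58.1) to these counts, DESeq2 (1.42.0), other scalings and filters, a replicate block and each library left out were alternatives. The scripts were tested on simulated data, in which few genes were changed, unlike in these libraries. There 40% of 100 genes with a 4-fold change were called and 2% of those with a 2-fold change were detected. A gene that was not called may therefore still have changed. Python 3.11.15 was used for tables and plots, through pandas 2.3.3, matplotlib 3.10.9 and numpy 2.4.6. TPM served only for ratios between genes.

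Named genes were Tcf7, up to 4 members of each gene list with the smallest adjusted p at 10 CPM or more, genes of proteins the study measured, and the 10 largest rises, falls and genotype differences among protein-coding genes at 20 CPM or more whose libraries do not overlap. The 32 gene lists and 15 marker lists, and the genes themselves, were chosen with earlier results of these data known. Gzmd, Gzmg, Il9, Il17a, Il22 and Ighe were below the filter, and Aldoa, Atp5o, Ddit3, Ahsp and Xist had no unique symbol. A few genes that the rule names are not reported here.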

Additional observations from a re-analysis of the deposited data

Results flagged for a closer look

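The values here are the log2 change at day 7 in TCF-1 cKO cells minus that in WT cells, for the genes given with a value in the report whose difference had an adjusted p under 0.05 by edgeR's interaction test over all genes tested. No cause of these differences was tested, and the olfactory receptor background and the cell content of the Pre-Tx libraries differed between the genotypes as given in the report.

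Of chemokine and cytotoxic genes, Ccl4 stood at -2.52, Ccl5 at -2.03, Xcl1 at -3.57, Gzmk at -1.92, Gzma at -2.58, Prf1 at -2.23 and Serpinb6b at -2.25. Of receptors, the values were -3.85 for Klrc1, -2.11 for Crtam, -1.65 for Havcr2, -3.13 for Btla, -1.72 for Cd28, -3.25 for Cxcr5, -1.72 for Cxcr6 and -2.29 for Il7r. S1pr1 stood at -1.83, Cd44 at -1.39, Foxp1 at -1.94, Id3 at -1.501, Tle4 at -2.02 and Ctnnb1 at -2.04. Among transcription factors the values were -1.25 for Bhlhe40, -1.2995 for Batf, -2.19 for Bcl6, -2.49 for Irf4 and -1.48 for Myc. Among signalling genes they were -1.22 for Malt1, -1.45 for Bcl10 and 0.89 for Cd6, the last above WT.

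Cell cycle and quiescence genes stood at -1.46 for Mki67, -1.17 for Top2a, -1.78 for Btg1 and -1.56 for Btg2. Survival genes stood at -1.61 for Mcl1, -1.32 for Bid, -1.296 for Bcl2a1d, -1.84 for Birc3, -1.21 for Casp2, -1.72 for Gimap6 and 2.95 for Tnfrsf10b. Interferon-stimulated genes stood at -2.26 for Ifit3, -1.18 for Irf9 and -1.74 for Gbp7, and metabolic genes at -1.03 for Pfkp, -1.39 for Sdha, -1.803 for Scd2 and -3.83 for Amd1. Capg stood at -0.94, Il16 at -1.14 and Zfp120 at -3.28.

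Differences above WT were 4.56 for Susd2, 4.89 for Zfp488, 3.64 for Wnt4, 3.1003 for Tcf7l1, 3.46 for Il4, 3.404 for Mcpt8, 2.001 for Ccl24 and 1.28 for Furin. Il5 stood at 7.901, a value that depends on the prior count because Il5 had no count before transplantation in TCF-1 cKO. Of genes that mark other cells, Cd8a stood at 2.24, Ighd at -1.62 and Klrb1c at -2.397.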

How the results depend on the processing

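The direction of the overall split and the counts depend on scaling, filter and libraries, with 2950 genes called higher, 2142 lower and 6134 differing between genotypes as reported. Scaled to the CD3 genes, 369 were higher and 9217 lower, and 476 and 9345 with only the 6 TCF-1 cKO libraries, an alternative chosen after seeing the data. Upper-quartile factors gave 1248 lower. A stricter filter, a mean of 10 CPM or more over the TCF-1 cKO libraries, was applied to a smaller set of 9809 genes. It gave 1383 higher, 1065 lower and 1508 that differed between genotypes. Leaving out 1 TCF-1 cKO library at a time gave 1052 to 2541 genes higher, 1344 to 2005 lower and 3013 to 6090 differing between genotypes, the lowest of the first and last without Post-Tx replicate 2. DESeq2 called 3963 higher and 2765 lower, limma voom 3233 and 2301, and the fit without a filter 2572 and 2680. With only the 6 TCF-1 cKO libraries 18648 genes were tested, 3018 called higher and 2449 lower. The median log2 fold change was then 0.06 against 0.36. The causes of these shifts were not tested.

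The labels do not say whether the replicate numbers pair the samples. The correlations of same-numbered deviations were -0.0196, 0.0774 and 0.0157, and not every library correlated best with its own number. Such small values from 3 libraries per group cannot decide it. With the replicate number as a block 1644 genes were higher, 1840 lower and 2981 differed between genotypes, and 2 of the 135 genes given with values lost their call.

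Of these 135 genes, 134 kept their direction and side of the threshold with DESeq2 size factors, DESeq2, limma voom and no filter, 133 of the 134 tested with only the TCF-1 cKO libraries, 123 with upper-quartile factors, 88 scaled to the CD3 genes and 113 of 125 with the CPM filter. Scaled to the CD3 genes, with all and with only the 6 libraries, the sign turned for Cd3e (-0.10), Trac (-0.24), Trbc2 (-0.0674 and -0.0673), Tnf (-1.26), Tox (-0.17), Tnfrsf18 (-0.25), Foxp3 (-1.44), Cxcr3 (-0.0867 and -0.0866), Lck (-0.34), Ldha (-0.44), Pfkp (-0.43), Gapdh (-0.66), Bcl2a1d (-0.33) and Klrc1 (-1.19), all subtracting the rise of the CD3 genes by construction. The remaining sign changes were in genes without a call. Cd44 went to 0.25 with upper-quartile factors and 0.22 with the CPM filter, and lay between -0.29 and 0.0378 with 1 library left out. Il7r went to 0.33 and 0.28 under the same settings, and lay between -0.75 and 0.19 with 1 library left out. On leaving out 1 library Foxp3 lay between -0.27 and 0.39, and Klrc1 between -0.0663 and 0.88. At 18022093 counts and more per library, 3 counts per library correspond to 0.144 normalized CPM before transplantation and 0.121 after it, and changes of genes near these levels were not detectable at this depth.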
